A study of Mus musculus with 280 samples.

Results

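Taco1, Slirp, Lrpprc and Tfam are nuclear genes whose proteins act on the RNA of mitochondria, and they are 4 of the 11076 genes in a table of single mouse embryos. They were picked by name, with earlier results of these embryos known, as a set that covers transcription, RNA stability and translation in the organelle. Taco1 and Slirp ranked 2 and 6 by p among the 9820 genes compared between paternal diets at the 4-cell stage. That comparison was therefore taken as the one that chose them, and its values for both genes are descriptions that support nothing. Embryos were made by in vitro fertilization and cultured in KSOM medium. Sperm came from FVB males fed a low protein diet (LP) or a control diet (C), and all oocytes came from females fed the control diet. The LP and C groups held 39 and 41 2-cell embryos, 40 and 42 4-cell embryos, 2 and 2 8-cell embryos, 35 and 38 morulae, 22 and 14 blastocysts, and 3 and 2 late blastocysts. The diet was given to the sires, of which there were 10 LP and 10 C, whereas the tests treat embryos of a sire as independent; their p-values measure the spread between embryos.

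Mitochondria of the early mouse embryo are inherited from the oocyte. Their small circular genome encodes a few subunits of the respiratory chain. The protein factors that transcribe it, keep its transcripts stable and translate them are made from nuclear genes. Tfam is a high mobility group protein that packages mitochondrial DNA and helps start its transcription. Lrpprc, a pentatricopeptide repeat protein, and Slirp, a small RNA-binding protein, form a complex that holds mitochondrial messenger RNAs stable and polyadenylated. Taco1 activates translation of the messenger of cytochrome c oxidase subunit I, a role known from human patients with Leigh syndrome.

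The promoters of the 4 genes are shown because all of them rose at the same step. The stretches come from RefSeq promoter windows of 300 bases on GRCm38.p6. They stop at the first annotated untranslated region of any gene on either strand, which for Slirp is that of its neighbour Alkbh1. The Lrpprc stretch, whose window holds no annotated untranslated bases, stops at the RefSeq start. All 4 genes had a window. The 220 bases of Taco1 are chr11:106065841-106066060, plus strand, the 179 bases of Slirp are chr12:87443646-87443824, plus strand, and the 250 bases of Lrpprc are chr17:84790787-84791036, minus strand. For Tfam, 286 bases of whose window are annotated as untranslated, 30 bases at chr10:71238074-71238103, minus strand, are given around the ETS match. Capitals mark motif matches on either strand within the printed bases.
Taco1: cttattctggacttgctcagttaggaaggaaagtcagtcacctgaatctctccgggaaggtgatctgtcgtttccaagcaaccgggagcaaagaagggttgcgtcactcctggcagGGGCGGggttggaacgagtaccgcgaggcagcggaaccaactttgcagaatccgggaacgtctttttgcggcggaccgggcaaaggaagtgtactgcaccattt
Slirp: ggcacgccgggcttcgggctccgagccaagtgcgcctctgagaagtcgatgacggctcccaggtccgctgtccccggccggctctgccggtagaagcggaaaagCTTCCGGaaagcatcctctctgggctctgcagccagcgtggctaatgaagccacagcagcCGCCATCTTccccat
Lrpprc: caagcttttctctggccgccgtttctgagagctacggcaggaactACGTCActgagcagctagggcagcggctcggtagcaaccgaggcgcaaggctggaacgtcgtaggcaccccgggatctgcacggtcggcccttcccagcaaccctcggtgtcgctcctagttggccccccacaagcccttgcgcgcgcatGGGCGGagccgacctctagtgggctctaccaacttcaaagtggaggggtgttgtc
Tfam: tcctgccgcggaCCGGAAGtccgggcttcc

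Of the motifs searched, no single motif was found in all 4 windows. The ETS motif CCGGAAG, bound by GABPA, stood in the windows of Slirp and Tfam; of its 3 matches in Slirp, those at -48 and -11 from the start lie past the printed bases. It is held by 9.12% of 27025 mouse windows and 19.1% of the 8410 windows of genes in the table. The YY1 motif AAGATGGCG stood in the Slirp window alone and is held by 1.49% of mouse windows and 3.35% of those of genes in the table. This match and the printed ETS match of Slirp lie inside the neighbouring gene Alkbh1, outside its untranslated region. They may therefore be coding sequence of Alkbh1, which was not examined. GGGCGG, the SP1 motif, stood in Taco1, Lrpprc and Tfam and is held by 35.9% of mouse windows and 63.1% of those of genes in the table. TGACGT, the core bound by CREB, stood in Lrpprc and is held by 7.64% and 12.2%. Neither the full palindromic NRF1 motif (0.977% and 2.25%) nor its core TGCGCA (8.06% and 15.2%) was in any of the 4 windows. No motif searched contains another. A match is a run of letters and not a measured site.

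The genes lie on different chromosomes of GRCm38. In GENCODE vM21, Taco1 spans chr11:106066061-106073612 on the plus strand, Slirp chr12:87443896-87452206 on the plus strand, Lrpprc chr17:84705247-84790789 on the minus strand and Tfam chr10:71225464-71238280 on the minus strand. Slirp overlaps Alkbh1 at its start and Snw1 at its end, both on the opposite strand, and the printed Slirp stretch lies inside Alkbh1. Whether reads were counted by strand is not given in the sources used here, so reads of the shared ends cannot be told apart. Snw1, the better expressed of the pair, averaged 84.9 TPM in LP and 77.2 TPM in C 4-cell embryos, against 106 TPM in LP and 92.7 TPM in C 2-cell embryos. Alkbh1 averaged 27.5 TPM in LP and 28.1 TPM in C 4-cell embryos, against 6.42 TPM in LP and 8.08 TPM in C 2-cell embryos, so its means were higher at the stage where those of Slirp were. The part of either gene in the Slirp values was not tested. Taco1 overlaps the antisense Taco1os and Lrpprc an unclassified transcript, AC165360.1.

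The values are TPM, a transcript's share of its library, which correct for transcript length and for the total of each library; an embryo's TPM summed to between 985115 and 998407 over the table. Between 3626 and 10204 genes per embryo reached 1 TPM, with a median of 8863, and read depth is unknown. A summed set of 8 markers of the 2-cell stage had medians of 16000 TPM in LP and 15108 TPM in C 2-cell embryos, and 90.1 TPM in LP and 107 TPM in C 4-cell embryos. The sum of 8 trophectoderm markers had medians of 12751 TPM in LP and 12233 TPM in C blastocysts. Its lowest values were 730 TPM in LP and 3495 TPM in C blastocysts, and its highest in morulae 2224.5 TPM in LP and 2262 TPM in C. Cyp19a1, the single cumulus cell marker of 12 that the table holds, reached at most 22.5 TPM, in a 2-cell embryo. Each library is a whole embryo, so a change in the number of cells of a type and a change in RNA per cell cannot be told apart.

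All 4 genes rose between the 2-cell and the 4-cell stage in LP embryos, and no later step of any of them met both limits of the test in LP embryos. The mean of Lrpprc was highest in blastocysts and that of Tfam in morulae. At this step 34.5% of the 11062 genes tested in LP embryos rose, with a Benjamini-Hochberg adjusted p under 0.05 in limma and a log2 fold change of at least 1, so a rise by itself does not set these genes apart. In the same step 37.6% of genes fell, and the median log2 fold change over all genes was -0.05. Fold changes are on the log2(TPM + 1) scale, which understates the change of genes near 0.

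**Figure D1:**
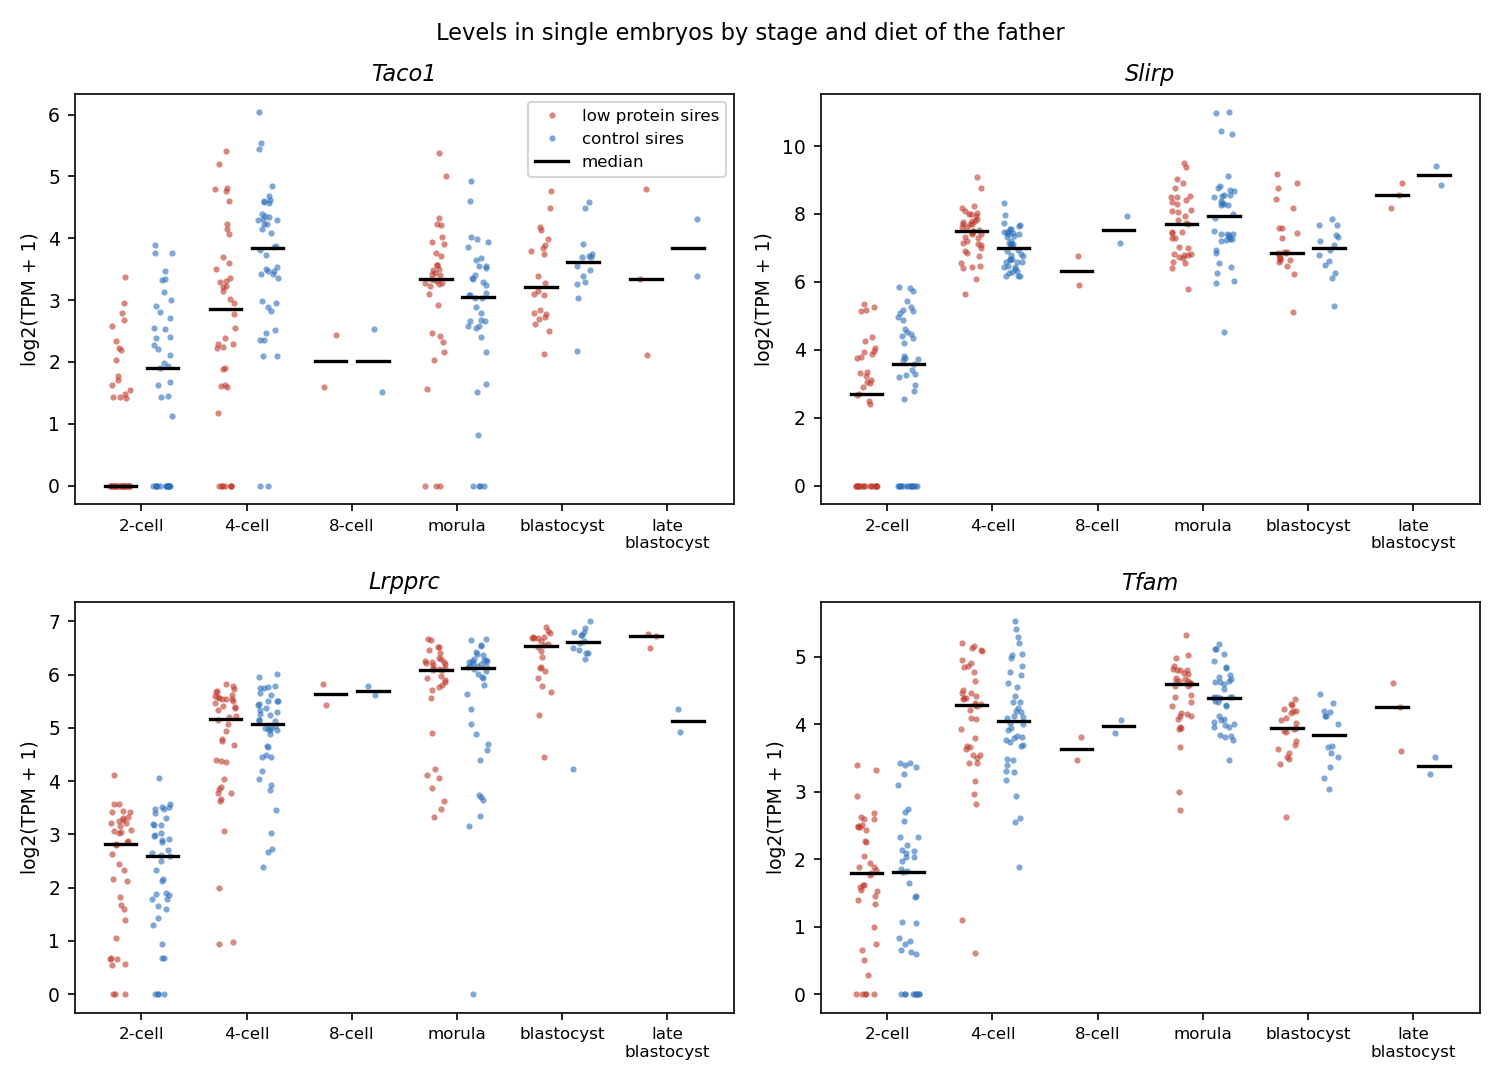
Level of each gene in each embryo, on the log2(TPM + 1) scale, by stage from 2-cell to late blastocyst, with LP embryos in red, C embryos in blue and a black bar at the median. All 4 genes sit lowest at the 2-cell stage, where Taco1 was at 0 in 22 of 39 LP and 15 of 41 C embryos.

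Tfam, which packages mitochondrial DNA, had a low level in 2-cell embryos that was still above 0 in most of them. In LP embryos its lowest, median and highest values were 0, 2.46 and 9.53 TPM at the 2-cell stage, 0.53, 18.6 and 35.8 TPM at the 4-cell stage, 5.62, 23.1 and 38.7 TPM in morulae, and 5.17, 14.3 and 19.7 TPM in blastocysts. In C embryos they were 0, 2.50 and 9.75 TPM, then 2.68, 15.6 and 45.2 TPM, then 10.1, 20.005 and 35.4 TPM, and then 7.25, 13.4 and 20.8 TPM. The ranges of neighbouring stages overlapped, but the 2-cell median lay below nearly every later embryo. The rise to the 4-cell stage was 2.43 ± 0.18 (log2 fold change ± SE) in LP embryos, with an adjusted p of 5.79e-26. From 4-cell to morula the difference in LP embryos was 0.19 ± 0.19, with an adjusted p of 0.402. From morula to blastocyst it was -0.68 ± 0.25 in LP embryos, with an adjusted p of 0.0209, short of the fold limit; in C embryos it was -1.11 ± 0.30. In LP embryos that step was -0.13 with an adjusted p of 0.667 under quantile normalization, and -0.54 with an adjusted p of 0.286 without plate 2. Under quantile normalization the 4-cell to morula step was 0.56 in LP embryos, with an adjusted p of 0.0011. In order of mean level, the 2-cell stage came lowest with 2.89 ± 2.35 TPM (SD, n = 39) in LP embryos, followed by blastocysts with 14.1 ± 3.62 TPM, 4-cell embryos with 18.4 ± 9.24 TPM and morulae with 21.5 ± 6.82 TPM. The 4-cell mean differed from those of its neighbours in this order by less than its own SD.

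Lrpprc, the RNA-stabilizing partner of Slirp, had a higher mean at each later stage from 2-cell to blastocyst. Its lowest, median and highest values in LP embryos were 0, 6.03 and 16.4 TPM at the 2-cell stage, 0.93, 35.1 and 55.6 TPM at the 4-cell stage, 9.03, 66.8 and 101 TPM in morulae, and 20.8, 92.1 and 118 TPM in blastocysts. C embryos had 0, 5.01 and 15.6 TPM, then 4.21, 32.8 and 63.1 TPM, then 0, 68.9 and 101 TPM, and then 17.8, 97.01 and 128 TPM. The medians climbed in the same order in both diets, with a tail of low embryos at each stage. Over the first step the fold change was 2.28 ± 0.19 in LP embryos, with an adjusted p of 1.19e-22. From 4-cell to morula Lrpprc was higher by 0.79 ± 0.20 in LP embryos, with an adjusted p of 3.75e-04 but short of the fold limit, while the median of all genes stood at -0.25; under quantile normalization, which moved that median to -0.05, it passed at 1.13. From morula to blastocyst the difference was 0.24 ± 0.26 in LP embryos, with an adjusted p of 0.485, against 0.69 and 0.0174 under quantile normalization. The mean levels in LP embryos, 5.47 ± 3.98, 31.2 ± 16.5, 58.8 ± 27.1 and 82.7 ± 26.05 TPM (SD), kept the order of development, and those of morula and blastocyst differed by less than the morula SD. The 5 LP blastocysts of plate 6 averaged 47.4 ± 19.1 TPM, against 95.2 ± 17.7 TPM on plate 2 and 83.3 ± 11.97 TPM on plate 3 in LP embryos.

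Slirp had the highest mean TPM of the 4 genes at every stage and in both diets, and the steepest rise. In 2-cell embryos it was at 0 in 16 of 39 LP and 13 of 41 C embryos, with medians of 5.54 TPM in LP and 10.9 TPM in C embryos and highest values of 39.5 TPM in LP and 56.7 TPM in C embryos. In 4-cell embryos the lowest, median and highest values were 49.4, 180 and 542 TPM in LP embryos and 70.7, 127 and 317 TPM in C embryos. The lowest LP embryo at the 4-cell stage was thus above the highest LP embryo at the 2-cell stage, and the same held in C embryos. The fold change was 5.32 ± 0.27 in LP embryos, with an adjusted p of 5.07e-40. Morulae had 54.3, 208 and 720 TPM in LP embryos and 22.1, 244 and 2044 TPM in C embryos, and blastocysts 33.6, 115 and 573 TPM in LP and 38.5, 128 and 229 TPM in C embryos. The highest LP blastocysts were the 5 of plate 6, which held no C blastocyst, at 286 to 573 TPM. Their mean was 424 ± 112 TPM, against 112 ± 39.8 TPM on plate 2 and 136 ± 48.01 TPM on plate 3 in LP embryos. Neither later step passed the test in LP embryos, with -0.01 ± 0.29 (adjusted p = 0.971) to morula and -0.29 ± 0.38 (adjusted p = 0.569) to blastocyst; under quantile normalization both were positive, at 0.25 and 0.15. The mean levels in LP embryos were 8.79 ± 11.3 TPM in 2-cell embryos, 186 ± 145 TPM in blastocysts, 190.1 ± 94.3 TPM in 4-cell embryos and 247 ± 163 TPM in morulae (SD); the last 3 differed from their neighbours by less than their SD.

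Taco1, the translation activator, had the lowest mean of the 4 genes from the 4-cell stage to the blastocyst. Its SD exceeded its mean in LP embryos of both the 2-cell and the 4-cell stage. In LP embryos the lowest, median and highest values were 0, 0 and 9.36 TPM at the 2-cell stage, 0, 6.29 and 41.6 TPM at the 4-cell stage, 0, 9.08 and 40.6 TPM in morulae and 3.37, 8.26 and 26.1 TPM in blastocysts. In C embryos they were 0, 2.72 and 13.9 TPM, then 0, 13.3 and 64.7 TPM, then 0, 7.32 and 29.6 TPM, and then 3.52, 11.3 and 23.1 TPM. Taco1 was listed at 0 in 22 of 39 LP and 15 of 41 C 2-cell embryos, 7 of 40 LP and 2 of 42 C 4-cell embryos, 3 of 35 LP and 4 of 38 C morulae, and none of the 22 LP and 14 C blastocysts, so zeros were commonest in 2-cell embryos. At values this low a 0 may be a transcript missed by the library, and the depth to settle it is not known. The first step was 1.97 ± 0.27 in LP embryos, with an adjusted p of 3.41e-11. The later steps in LP embryos were 0.01 ± 0.29 (adjusted p = 0.976) and 0.03 ± 0.37 (adjusted p = 0.953). The mean levels of LP 4-cell embryos, morulae and blastocysts, 9.32 ± 10.3, 10.4 ± 8.10 and 10.5 ± 5.95 TPM (SD), lay well within each other's spread.

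The same steps in C embryos had been seen in an earlier analysis of these data and are given as a description. From 2-cell to 4-cell the log2 fold changes in C embryos were 2.14 ± 0.26 for Taco1, 4.34 ± 0.30 for Slirp, 2.39 ± 0.19 for Lrpprc and 2.51 ± 0.18 for Tfam, beside 34.4% of 11054 genes rising and 36.9% falling. From 4-cell to morula they were -0.98 ± 0.28 for Taco1, 0.52 ± 0.32 for Slirp, 0.54 ± 0.20 for Lrpprc and 0.32 ± 0.19 for Tfam, beside 9.93% rising and 26.4% falling. The Taco1 value was -0.45 under quantile normalization, with an adjusted p of 0.118, and in LP embryos the same step was 0.01. From morula to blastocyst they were 0.34 ± 0.44 for Taco1, -0.67 ± 0.50 for Slirp, 0.74 ± 0.32 for Lrpprc and -1.11 ± 0.30 for Tfam, beside 7.42% rising and 16.9% falling; without plate 2 the last was -0.75.

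**Figure D2:**
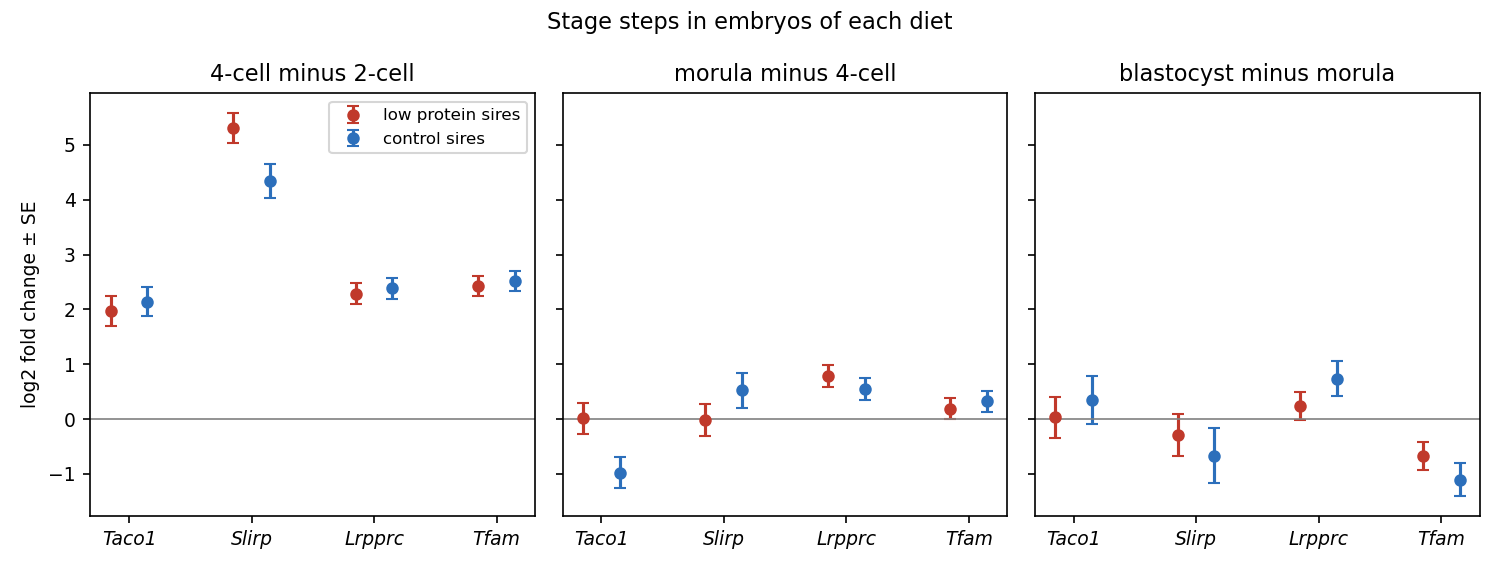
Log2 fold change of each gene over the 3 stage steps, with SE, in LP embryos (red, left of each pair) and C embryos (blue), from limma with plate as covariate. The first step lies between 1.97 and 5.32 for all genes in both diets, whereas later steps lie between -1.11 and 0.79.

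Other nuclear genes of mitochondrial gene expression also rose at the first step in LP embryos, in part, and some fell. The lists were written with earlier results of these embryos known and include the 4 genes. Of 21 genes for transcription and maintenance of mitochondrial DNA, 11 rose and 3 fell, with a median log2 fold change of 1.64 beside -0.05 over all genes, of which 34.5% rose and 37.6% fell. Of 34 genes for mitochondrial RNA processing and stability, 14 rose and 10 fell, with a median of 0.42. Of 31 translation factors 15 rose and 2 fell, with a median of 0.91. Of 30 cytochrome c oxidase subunits and assembly factors 18 rose and 4 fell, with a median of 1.07. Of 14 regulators of mitochondrial biogenesis 8 rose and 3 fell, with a median of 1.36, and of 16 mitochondrial proteases and chaperones 8 rose and 2 fell, with a median of 1.05. All 6 medians stayed above the all-gene median under quantile normalization, which moved that of all genes to 0.14. None of the 28 mitochondrially encoded genes listed was found in the table under its listed name, so they could not be analysed.

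**Figure D3:**
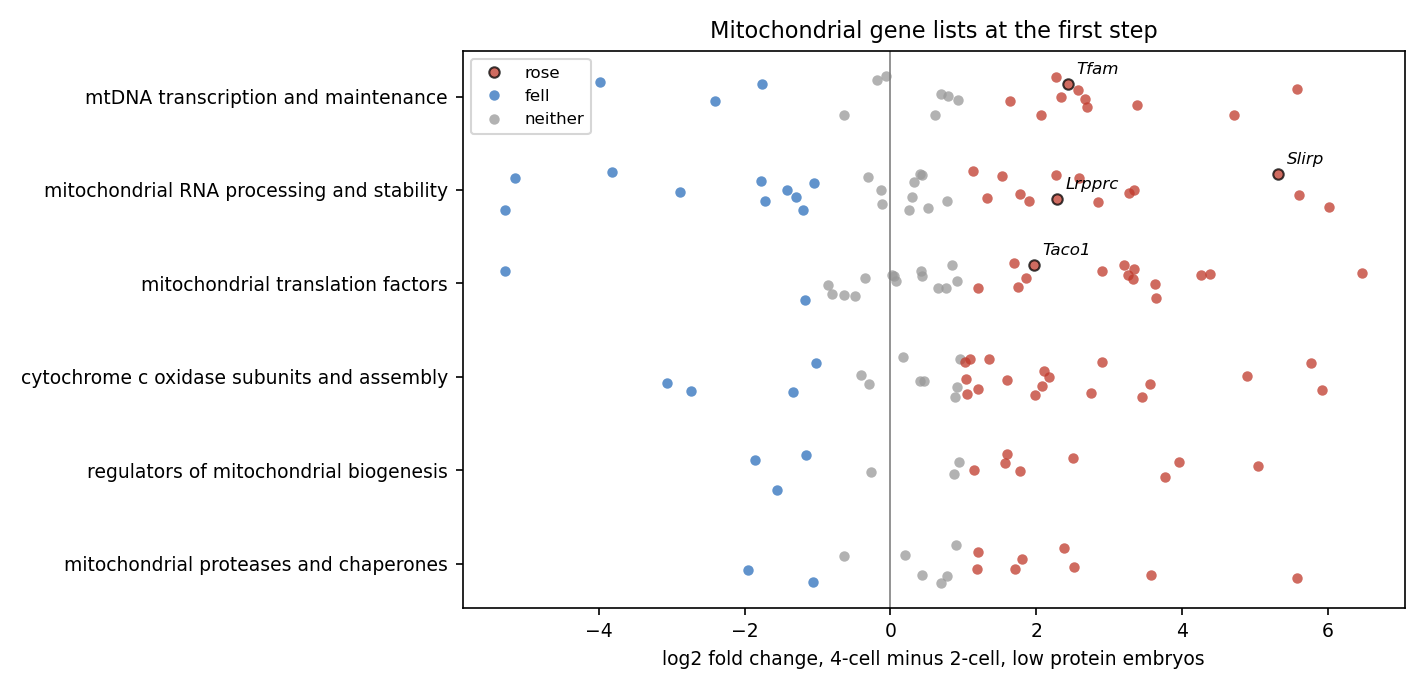
Log2 fold change from the 2-cell to the 4-cell stage in LP embryos for each gene of 6 mitochondrial lists, 1 point per gene, red where it rose, blue where it fell and grey where it did neither. Slirp, at 5.32, is among the steepest rises, while Taco1, Lrpprc and Tfam lie in the middle of the red points of their lists.

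Among the genes of these lists with the largest changes, most stood at a few TPM in 2-cell embryos. Tufm, the mitochondrial elongation factor Tu, averaged 264 ± 96.9 TPM in LP 4-cell embryos (SD, n = 40), against 4.02 ± 6.13 TPM in LP 2-cell embryos (n = 39), a log2 fold change of 6.46 ± 0.21 with an adjusted p of 1.42e-61. Trmt61b, a methyltransferase of mitochondrial RNA, averaged 149 ± 67.8 TPM in 4-cell and 2.47 ± 3.36 TPM in 2-cell LP embryos. Rnmtl1, which methylates the large ribosomal RNA of the organelle, averaged 74.9 ± 33.9 TPM in 4-cell and 1.10 ± 2.19 TPM in 2-cell LP embryos. Of the cytochrome c oxidase genes, the structural subunit Cox7c rose by 5.91, the copper chaperone Cox17 by 5.76 and the assembly factor Cox19 by 4.89 on the log2 scale. The protease subunit Clpp rose by 5.57, its unfoldase partner Clpx by 3.57 and the inner membrane protease Yme1l1 by 2.51. The mitochondrial nuclease Endog rose by 5.58 and Tefm, the elongation factor of mitochondrial transcription, by 4.71. Rbfa, a factor for ribosome assembly, rose by 4.38. Among regulators of biogenesis Myc rose by 5.03, Prkaa1, a catalytic subunit of the AMP-activated kinase, by 3.95 and the coactivator Pprc1 by 3.76.

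Other genes of the same lists fell, among them 10 of the 34 for mitochondrial RNA processing and stability. Nsun4, which methylates mitochondrial ribosomal RNA and is counted in 2 lists, averaged 12.6 ± 8.89 TPM in LP 4-cell embryos, against 488 ± 124 TPM in LP 2-cell embryos, a log2 fold change of -5.28 ± 0.19 with an adjusted p of 3.17e-57. Tk2, the mitochondrial thymidine kinase, averaged 2.52 ± 3.43 TPM in 4-cell and 50.2 ± 27.98 TPM in 2-cell LP embryos, at -3.98 ± 0.25. The 4 genes followed Tufm in direction and not Nsun4.

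From 4-cell to morula the lists parted in LP embryos. Of the 30 cytochrome c oxidase genes 6 rose and none fell, beside 11.5% of all genes rising and 23.7% falling. Cox7a2l averaged 134 ± 35.03 TPM in LP morulae and 55.996 ± 30.7 TPM in LP 4-cell embryos, Cox7b 104 ± 63.1 TPM in morulae and 35.1 ± 25.01 TPM in 4-cell embryos, and the assembly factor Cox20 28.3 ± 27.01 TPM in morulae and 6.65 ± 6.80 TPM in 4-cell embryos. Of the 14 biogenesis regulators 8 fell and 2 rose, with Myc at -2.51 ± 0.33, Pprc1 at -2.27 ± 0.22 and Nfe2l2, a factor of the antioxidant response, at 2.37 ± 0.24. Of the 21 genes for mitochondrial DNA 4 fell and 1 rose; Endog fell by 2.72, the transcription factor Tfb2m fell by 2.24 and Tefm fell by 2.02. Of the 34 RNA genes 9 fell and 3 rose, and Grsf1, a protein of mitochondrial RNA granules, fell by 2.49, Trmt61b fell by 2.40 and Fastkd1 fell by 2.39. The shares of falls in these 2 lists are near that of all genes; Tfam, at 0.19, and Lrpprc, at 0.79, are not among the genes that fell. Of 31 translation factors 4 rose and 3 fell, with Noa1, a GTPase of the organelle, at -1.94, Coa3 at 1.10 and Letm1 at 1.09. Of 16 proteases and chaperones 2 rose and 3 fell, with Hspe1, the small chaperonin subunit, at 1.20, Clpx at -1.27 and Yme1l1 at -1.26. Under quantile normalization 10 oxidase genes, 6 translation factors and 3 mitochondrial DNA genes rose, 5 regulators and 6 RNA genes fell, 4 proteases and chaperones rose and 1 fell, and the median of the RNA list changed sign, being 0.16 there and -0.23 as deposited.

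From morula to blastocyst, 5% of genes rose and 19.1% fell in LP embryos. Of the oxidase genes 6 rose and 1 fell. Cox7b averaged 259 ± 144 TPM in LP blastocysts and 104 ± 63.1 TPM in LP morulae, and Cox18, an assembly factor, 173 ± 61.96 TPM in blastocysts and 79.2 ± 33.9 TPM in morulae, whereas Coa7 fell by 1.29. No gene of the other 5 lists rose, and 5 of the mitochondrial DNA list, 4 of the RNA list, 7 translation factors, 5 regulators and 1 protease or chaperone fell. They included Tfb2m at -1.46, Mterf3 at -1.28, Endog at -1.06, Trmt61b at -3.10, Rnmtl1 at -1.41, Rbfa at -1.76, Mtg2 at -1.64, Ict1 at -1.43, Prkaa1 at -1.55, Nrf1 at -1.51, Myc at -1.37 and Clpx at -1.80. LP blastocysts lay on plates 2, 3 and 6, and 14 of the 35 LP morulae on plate 1, so stage and plate are partly confounded at this step. Mean Nrf1, for example, was 42.1 TPM in LP morulae and 31.5 TPM in LP blastocysts, a smaller fall than the fitted one. Under quantile normalization 1 gene of each of 4 of these lists rose, 3 of the mitochondrial DNA list, 2 of the RNA list, 3 translation factors and 1 regulator fell, and the medians of the DNA, RNA, translation and protease lists turned positive.

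The father's diet was compared within each stage. No gene of the table passed an adjusted p of 0.05 in limma at any stage, so percent called was 0 for each, while 717 of 10314 genes (6.95%) in 2-cell embryos, 511 of 9820 (5.2%) in 4-cell embryos, 996 of 9552 (10.4%) in morulae and 322 of 9378 (3.43%) in blastocysts had an unadjusted p under 0.05. None of the 4 genes passed at any stage. The differences below are LP minus C on the log2 scale.

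At the 4-cell stage Taco1 stood lower and Slirp higher in LP embryos; this is the comparison taken to have chosen both genes. Taco1 averaged 9.32 ± 10.3 TPM in LP (SD, n = 40) and 15.6 ± 12.5 TPM in C embryos (n = 42), with medians of 6.29 TPM in LP and 13.3 TPM in C, a difference of -1.02 ± 0.24 (SE). Slirp averaged 190.1 ± 94.3 TPM in LP and 135 ± 54.01 TPM in C embryos, a difference of 0.40 ± 0.11. The highest LP values of Slirp, 542 and 437 TPM, came from libraries in which 6898 and 5071 genes reached 1 TPM. For both genes the diets overlapped over most of their range. Within the 7 plates that held both diets, the differences ran from -1.43 to -0.03 for Taco1 and from -0.34 to 1.47 for Slirp; these values come from the comparison that chose both genes and support nothing. On plate 4 mean Taco1 was 19.1 TPM in LP and 16.1 TPM in C embryos although its mean log2 difference was -0.70. Lrpprc and Tfam showed no such shift, at -0.12 (95% interval -0.46 to 0.21) and 0.00 (-0.33 to 0.34).

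**Figure D4:**
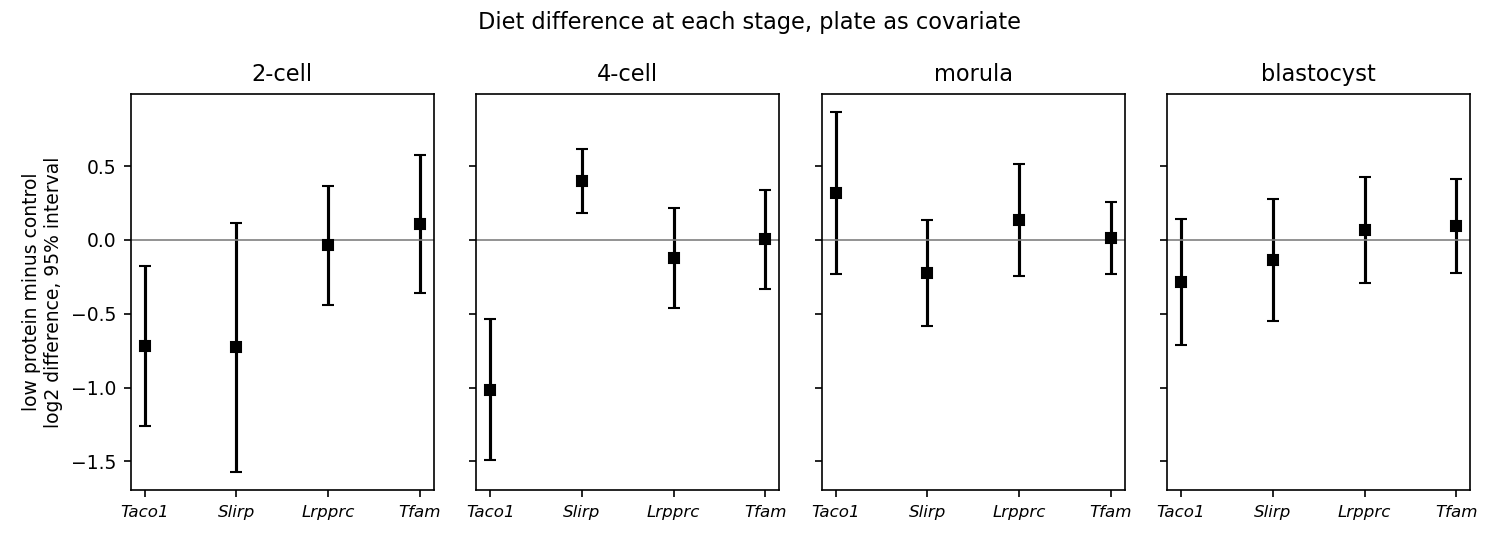
LP minus C difference of each gene at 4 stages on the log2 scale, with its 95% interval, from limma with plate as covariate. Taco1 sits at -0.72 in 2-cell and -1.02 in 4-cell embryos and Slirp at -0.73 and 0.40. Lrpprc and Tfam stay between -0.12 and 0.13, and no difference passed adjustment over all genes. The 4-cell comparison is taken to have chosen Taco1 and Slirp, so their values and intervals there support nothing.

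The other stages use other embryos, although largely of the same sires and plates. At the 2-cell stage Taco1 averaged 1.597 ± 2.32 TPM in LP (n = 39) and 3.57 ± 3.97 TPM in C embryos (n = 41), a difference of -0.72 ± 0.28 (SE) with an unadjusted p of 0.0111 and an adjusted p of 0.706, and was lower in LP embryos in 7 of 8 sire pairs, the sires being paired by the stem of their identifiers, which no label states to be a pairing. Slirp averaged 8.79 ± 11.3 TPM in LP and 15.6 ± 16.6 TPM in C 2-cell embryos, at -0.73 ± 0.43 with an adjusted p of 0.713, and was lower in LP in 6 of 8 pairs. The Slirp estimate was negative here and positive at the 4-cell stage, in the comparison taken to have chosen the gene. Its 2-cell 95% interval, -1.57 to 0.12, holds 0, so no change of sign between the stages can be concluded. In morulae Taco1 averaged 10.4 ± 8.10 TPM in LP and 8.00 ± 6.14 TPM in C embryos, at 0.32 ± 0.28 with an adjusted p of 0.696, and was higher in LP in 6 of 8 pairs. Slirp averaged 247 ± 163 TPM in LP and 389.9 ± 483 TPM in C morulae, at -0.22 ± 0.18 with an adjusted p of 0.674. The C morulae highest in Slirp, at 2044, 2010, 1397 and 1303 TPM, reached 1 TPM in 7533, 3626, 6600 and 5726 genes. The median of C morulae was 8622.5 genes, and the next highest Slirp value among them was 554 TPM. The part of library quality in the Slirp values was not tested. In blastocysts, where 2 sire pairs hold both diets, the differences were -0.28 ± 0.22 for Taco1 and -0.14 ± 0.21 for Slirp, with an adjusted p of 0.9998 for each.

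Lrpprc and Tfam were close between diets at every stage tested. Lrpprc averaged 5.47 TPM in LP and 5.11 TPM in C 2-cell embryos, and 58.8 TPM in LP and 56.9 TPM in C morulae. In blastocysts Lrpprc averaged 82.7 TPM in LP and 93.7 TPM in C embryos. Lrpprc averaged 47.4 TPM in the LP blastocysts of plate 6, which held no C blastocyst. Its differences ran from -0.12 to 0.13, and the widest 95% interval among the 4 stages reached from -0.44 to 0.37, in 2-cell embryos. Tfam averaged 2.89 TPM in LP and 2.94 TPM in C 2-cell embryos, 21.5 TPM in LP and 20.8 TPM in C morulae, and 14.1 TPM in LP and 13.7 TPM in C blastocysts. Its differences ran from 0.00 to 0.11, with the widest interval, -0.36 to 0.58, at the 2-cell stage.

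A limma F test over the 4 stages asked whether the diet difference changed with stage; it includes the 4-cell embryos that chose Taco1 and Slirp. It called 14 of 11054 genes (0.127%), and 9.25% had an unadjusted p under 0.05. Taco1 had an F of 4.92 and an adjusted p of 0.203, Slirp 2.95 and 0.482, and Lrpprc and Tfam 0.365 and 0.0877 with an adjusted p of 1. In that fit, which took plate within stage, the 2-cell to 4-cell step of Slirp was 1.13 larger in LP than in C embryos, and the 4-cell to morula step of Taco1 was 1.34 larger.

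The mitochondrial lists as a whole showed no such shift with diet at the 4-cell stage. No member of the 6 lists passed at any stage, and their median differences at the 4-cell stage lay between -0.09 and -0.02, beside -0.04 over all genes. At the 2-cell stage they lay between -0.12 and 0.05, beside 0.02.

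The 8-cell and late blastocyst groups are too small for a test, lie on 1 plate each, and hold embryos of 1 sire per diet, so diet and sire cannot be told apart there. At the 8-cell stage Slirp had 107 and 58.9 TPM in LP embryos and 139 and 244 TPM in C embryos, and Tfam had 10.01 and 12.99 TPM in LP and 15.7 and 13.7 TPM in C embryos. In these 2 of 4 genes every LP embryo was below every C embryo, which held for 21.8% of 10129 genes. Taco1 had 2.01 and 4.39 TPM in LP and 1.86 and 4.77 TPM in C 8-cell embryos, all below its mean of 9.64 ± 7.10 TPM over the 8 4-cell embryos and 14.8 ± 7.25 TPM over the 8 morulae of the same plate (SD), which came from other sires. Those 4-cell embryos averaged 4.81 ± 2.48 TPM in LP, from 2.72 to 8.40 TPM, which overlaps the 8-cell values. In C they averaged 14.5 ± 7.02 TPM, from 6.43 to 23.2 TPM. Lrpprc had 42.2 and 55.8 TPM in LP and 48.05 and 53.8 TPM in C embryos, between its 4-cell and morula means.

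In late blastocysts Lrpprc had 107, 89.6 and 105 TPM in LP embryos and 39.6 and 29.4 TPM in C embryos. Tfam had 18.04, 11.1 and 23.5 TPM in LP and 10.3 and 8.58 TPM in C embryos. In these 2 of 4 genes every LP embryo was above every C embryo, which held for 24.3% of 10240 genes. Slirp had 478, 288 and 377 TPM in LP and 464 and 683 TPM in C late blastocysts, and Taco1 3.32, 9.13 and 26.9 TPM in LP and 9.45 and 18.9 TPM in C, with overlap in both. The balance of short against long transcripts, defined in the next paragraph, was 1.964, 1.952 and 2.157 in LP and 2.406 and 2.717 in C late blastocysts, so the C embryos, low in Lrpprc, also had less of long transcripts relative to short ones. Its part in the difference was not tested.

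Libraries of plate 4 stood apart, with low Lrpprc and high Slirp, though some other plates shared part of this. Lrpprc has a coding transcript of 4393 bases, Slirp coding transcripts with a median of 582 bases, Tfam of 839 bases and Taco1 of 1383 bases. The balance is the mean log2(TPM + 1) of 2030 genes with a transcript of at most 1008 bases minus that of 2028 genes with at least 3546 bases. It was 2.26 ± 0.24 on plate 4 (n = 7) and 1.495 ± 0.301 on the other plates (n = 75) at the 4-cell stage, and 2.63 ± 0.25 (n = 13) and 2.00 ± 0.21 (n = 60) in morulae. Lrpprc averaged 8.12 ± 4.34 TPM on plate 4 and 34.03 ± 14.8 TPM elsewhere at the 4-cell stage, and 15.1 ± 8.26 and 67.05 ± 21.2 TPM in morulae. Slirp averaged 281 ± 76.3 TPM on plate 4 and 151 ± 72.05 TPM elsewhere at the 4-cell stage, and 622 ± 513 and 256 ± 300.1 TPM in morulae. Morulae also averaged 510 ± 498 TPM of Slirp on plate 6 (n = 15) and 367 ± 116 TPM on plate 7 (n = 4). The balance of these morulae was 1.86 ± 0.14 on plate 6 and 2.07 ± 0.22 on plate 7. At the 4-cell stage Lrpprc averaged 20.1 ± 11.4 TPM on plate 5 (n = 22), where the balance was 1.23 ± 0.39. Tfam averaged 14.4 ± 8.05 TPM on plate 4 and 18.6 ± 9.78 TPM elsewhere at the 4-cell stage, and 20.96 ± 9.33 and 21.2 ± 5.95 TPM in morulae. Plate 4 embryos thus make up much of the low tail of Lrpprc in morulae. The highest Slirp value, 2044 TPM, came from a morula of another plate. The part of transcript length in these differences was not tested. The diets were alike in the balance at the 4-cell stage, at 1.56 ± 0.37 in LP and 1.56 ± 0.36 in C embryos.

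**Figure D5:**
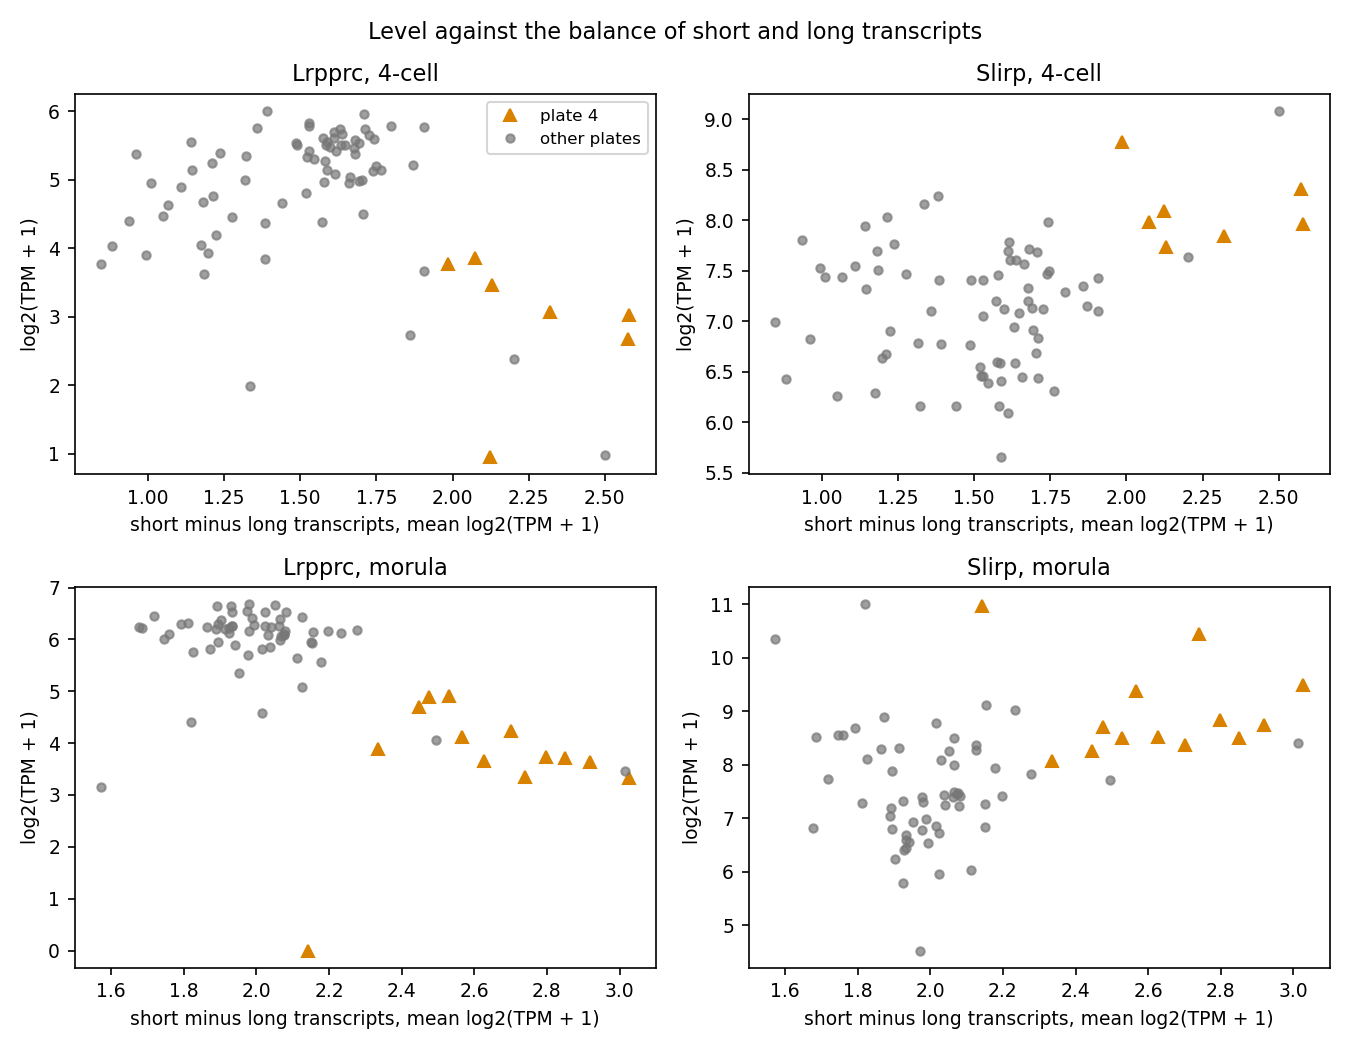
Level of Lrpprc and Slirp in each embryo, on the log2(TPM + 1) scale, against the balance of short and long transcripts, at the 4-cell stage and in morulae, with plate 4 as orange triangles and the other plates as grey points. Plate 4 embryos lie to the right in each panel, low for Lrpprc (mean 8.12 TPM at the 4-cell stage) and high for Slirp (mean 281 TPM).

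After plate and diet means were removed, Pearson's r of Lrpprc with the balance was -0.65 over 82 4-cell embryos and -0.71 over 36 blastocysts, but -0.16 over 73 morulae and -0.27 over 80 2-cell embryos. For Slirp r was 0.21 in 2-cell embryos, 0.56 in 4-cell embryos, 0.13 in morulae and 0.34 in blastocysts. The balance is made from the same libraries as the levels, so these values are descriptions.

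Stage accounted for most of the spread of Slirp, Lrpprc and Tfam over the 271 embryos of the 4 main stages, with 72.6%, 65.8% and 68.1% of the sum of squares of log2(TPM + 1). For Taco1 it accounted for 31.04%, and 46.3% lay between embryos of the same stage, plate and diet. Plate within stage took 17.1% for Lrpprc, 14.8% for Taco1, 7.17% for Slirp and 5.50% for Tfam. Diet within plate took 7.94% for Taco1 and between 1.17% and 1.88% for the other 3 genes. These shares include the 4-cell comparison taken to have chosen Taco1 and Slirp. No share expected without a diet difference was computed, so they support nothing about diet.

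Slirp and Lrpprc, whose proteins form a complex, shared the rise in stage but not the variation between embryos. Across all 280 embryos r was 0.57, where stage carries both. Within stages it was -0.49 in 4-cell embryos, -0.66 in morulae and -0.51 in blastocysts, and -0.25, -0.49 and -0.10 once plate and diet means were removed. The C morulae highest in Slirp, at 2044, 2010, 1397 and 1303 TPM, had Lrpprc at 20.1, 0, 9.21 and 7.95 TPM. Few genes were detected in some of these libraries, and their part in r was not tested. Slirp TPM exceeded Lrpprc TPM in 18 of 39 LP and 24 of 41 C 2-cell embryos, in all 40 LP and 42 C 4-cell embryos, in 33 of 35 LP and 35 of 38 C morulae, and in 17 of 22 LP and 10 of 14 C blastocysts. All 4 transcripts were present together in 10 of 39 LP and 12 of 41 C 2-cell embryos, in 33 of 40 LP and 40 of 42 C 4-cell embryos and in every one of the 36 blastocysts. Taco1 and Slirp had an r of -0.38 in 4-cell embryos, and -0.34 with plate and diet means removed.

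The genes whose levels ran most like each of the 4 across 280 embryos were different sets. Slirp was closest to the ribosomal protein gene Rpl30 (r = 0.88), the proteasome subunit gene Psma3, Rps24, Rpl26 and Dppa5a. Lrpprc was closest to Abce1 (r = 0.88), a ribosome recycling factor, the valyl-tRNA synthetase gene Vars, the chaperonin subunit gene Cct2, Atp5a1, a subunit of ATP synthase, and the lysosomal protease gene Ctsd. Tfam was closest to the initiation factor gene Eif3m (r = 0.82), Vnn1, Mtx2, Psmd13 and Gnb2l1. Taco1 was closest to Chchd2 (r = 0.64), Ruvbl1, Smpdl3b and the chaperonin subunit genes Cct8 and Cct3. By the same measure Tfam and Lrpprc had an r of 0.70, Tfam and Slirp 0.65, Taco1 and Tfam 0.53, Taco1 and Lrpprc 0.50, and Taco1 and Slirp 0.46; embryos share stage, plate and library, so each is a description.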

How the data were processed

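Transcriptomes of 280 single embryos were measured by RNA sequencing with a Nextera kit, per the labels. The deposited values are TPM per gene; per the submitters' processing notes Bowtie and mm10 were used, and the quantifier, annotation and versions are not given in the sources used here. All columns of the table were mapped to samples by name, and plates were read from those names. From the TPM, log2(TPM + 1) was fitted with limma 3.58.1 in R 4.3.3 (trend, robust, two-sided), keeping genes with at least 1 TPM in 25% of embryos of a stage, with plate as covariate and Benjamini-Hochberg adjustment over all genes. Diet was compared per stage, steps within each diet, with an adjusted p under 0.05 and, for steps, an absolute log2 fold change of at least 1. The code was tested on simulated data. The 4 genes and all lists were chosen with earlier results of these data known. Named genes are the 4 genes, the 5 most like each by Pearson's r, and the 3 genes of each list with the largest called change per step in LP embryos and a mean of at least 20 TPM in a stage. Promoter windows are RefSeq's and gene positions GENCODE vM21's. Depth per embryo is unknown, so no counting error is given. Alternatives were another pseudocount, no filter, quantile normalization, no plate term, TPM without Rn45s, without embryos under 5000 genes, sire terms, each plate and sire pair left out and, added after seeing the data, the transcript balance as covariate.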

Additional observations from a re-analysis of the deposited data

How the results depend on the processing

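Over 28 alternatives, 703 of 772 values of the 4 genes kept their direction and their side of the threshold, among them all 116 of the first step and all 60 of the interaction. These counts hold values that could not differ. Leaving out a plate with a single sire pair at a stage repeats the diet value without that pair. Leaving out the 1 embryo under 5000 genes, a C morula, repeats the LP steps. None of 364 diet values passed the threshold. In 4-cell embryos Taco1 ran from -1.48 to -0.83 and Slirp from 0.32 to 0.56. These 4-cell values come from the comparison taken to have chosen both genes, so their steady sign supports nothing. Taco1 in 2-cell embryos ran from -1.39 to -0.61. The values below changed sign, mostly near 0, or changed the call of a step, which needs both the fold and the p limit, and the cause was not tested. With a pseudocount of 0.1 the diet difference of Tfam in 4-cell embryos was -0.026, and the 4-cell to morula step of Taco1 was -0.086 in LP and -1.16 in C, the last past the limits. Under quantile normalization the morula diet differences were -0.012 for Lrpprc and -0.11 for Tfam, and the Slirp steps in LP were 0.25 to morula and 0.15 to blastocyst. There Lrpprc passed the limits to morula at 1.13 in LP and 1.04 in C and to blastocyst at 1.04 in C, while Tfam to blastocyst in C, at -0.70, did not. In steps that gained or lost the p limit alone, quantile normalization gave to morula 0.56 for Tfam in LP (adjusted p = 0.0011), -0.45 for Taco1 (0.118), 0.78 for Slirp (0.0178) and 0.80 for Tfam (4.25e-05) in C, and to blastocyst 0.69 for Lrpprc (0.0174) and -0.13 for Tfam (0.667) in LP. Other settings moved the p of 4 steps in C across the limit in the same way, Slirp, Lrpprc and Tfam to morula and Lrpprc to blastocyst, and that of Tfam to blastocyst in LP. Without the plate term the diet differences were 0.050 for Lrpprc in 2-cell embryos, -0.0055 for Tfam in 4-cell embryos, and 0.30 for Slirp and -0.17 for Lrpprc in blastocysts; the step to morula was 0.25 for Slirp in LP, and that to blastocyst -0.57 for Tfam in C, no longer past the limits. Without Rn45s Tfam differed by -0.012 in 4-cell embryos, and Taco1 to morula was -0.010 in LP and -1.01 in C, past the limits. With the transcript balance as covariate Tfam differed by -0.029 in 4-cell embryos, Taco1 stepped by -0.16 to morula and -0.018 to blastocyst in LP and by -1.25 to morula in C, and Lrpprc by 1.55 to morula in LP, the last 2 past the limits. With sire as a correlated block Tfam differed by -0.00075 in morulae. Over sire means the differences were 0.15 for Slirp and -0.11 for Lrpprc in blastocysts, 0.023 for Lrpprc in 2-cell embryos and -0.022 for Tfam in morulae. Leaving out a plate or sire pair at a time, diet differences ran from -0.13 to 0.084 for Lrpprc and -0.042 to 0.24 for Tfam in 2-cell embryos, -0.20 to 0.057 for Lrpprc and -0.052 to 0.067 for Tfam in 4-cell embryos, -0.010 to 0.28 for Lrpprc and -0.065 to 0.088 for Tfam in morulae, and -0.32 to 0.62 for Slirp and -0.41 to 0.19 for Lrpprc in blastocysts. In the same way the steps in LP ran from -0.24 to 0.38 for Taco1 and -0.16 to 0.24 for Slirp to morula, and from -0.18 to 0.66 for Taco1 and -0.043 to 0.62 for Lrpprc to blastocyst. In C, Taco1 to morula ran from -1.08 to -0.84, and Tfam to blastocyst from -1.26 to -0.75, the second without plate 2 and no longer past the limits; without that plate 1133 genes changed at this step in C, against 2693 with it. With sire as a correlated block 31 genes passed by diet in blastocysts, against 0, and over all alternatives the interaction called 0 to 19 genes. No counting error can be given, since the depth behind a TPM is unknown.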
